A study of Homo sapiens with 8 samples.

Results

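The genes examined here are 10 factors that act in the transcription, 3′ processing and decay of histone mRNA, namely SLBP, LSM10, LSM11, ZNF473, CASP8AP2, NPAT, NCBP1, NCBP2, SRRT and ERI1. They were chosen by symbol for these roles, with earlier results of these data known. All 10 of the 60725 genes in the count table were found, and all 10 were among the 16367 genes abundant enough to be tested in the combined comparison. HAP1 cells are an adherent human line with a near-haploid genome, derived from a leukaemia line. Every library came from 1 monoclonal HAP1 clone, HAP1 dCAS9-KRAB cSC9, in which the EF1a promoter drives a catalytically dead Cas9 fused to the KRAB repressor, so that a guide RNA silences the promoter it is aimed at (CRISPRi). As the negative control, cells received a lentiviral guide RNA against ADAM22 (plasmid pLB187, 3 libraries). The labels of these libraries name only the plasmid, which was taken to carry the ADAM22 guide RNA. In the knockdowns the guide RNA was against NELFE (NELFE KD, 3 libraries) or against NELFB (NELFB KD, 2 libraries). The cells were selected with puromycin and were harvested 144 h after transduction. Since all the cells share 1 clone, clonal features are common to the knockdowns and the control.

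NELF, the negative elongation factor, holds RNA polymerase II in the promoter-proximal pause, and NELFB and NELFE are subunits of it. Replication-dependent histone mRNAs are the metazoan mRNAs that normally carry no poly(A) tail. NPAT and CASP8AP2 concentrate at the histone gene clusters, SLBP binds a stem-loop close to the end of the nascent histone RNA, and the U7 small nuclear ribonucleoprotein (snRNP), with LSM10 and LSM11 in its ring, pairs with a site just downstream and brings in the endonuclease that cuts between them. The cap-binding complex of NCBP1 and NCBP2, together with SRRT, links the capped 5′ end to this reaction and is known to bind NELF, and ERI1 trims and later helps to degrade the finished 3′ end.

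The stem-loop that SLBP and ERI1 recognise is shown first, followed by the U7 RNA. The downstream site that the U7 snRNP pairs with was not searched. The stem-loop was searched on the transcribed strand as GGNNCT (stem), TTTN (loop) and AGNNCC (stem) in a row, from 300 bases before to 100 bases after the annotated gene end. It was found at 49 of 68 replication-dependent histone genes and at 51 of 20046 protein-coding genes in all (0.254%). A stem-loop farther from the annotated gene end would be missed, so a gene without a hit may still hold one. H2AC6, named below, was among the genes without a hit. For each of the 5 histone families the stem-loop of the member with the smallest adjusted p among those holding the motif is printed (GRCh38, chromosome 6, 5′ to 3′ on the transcribed strand, with the motif in capitals). They lie at chr6:26055739-26055764 on the minus strand for H1-2, chr6:27133510-27133535 on the plus strand for H2AC11, chr6:27146361-27146386 on the minus strand for H2BC12, chr6:26270918-26270943 on the minus strand for H3C8 and chr6:27139649-27139674 on the plus strand for H4C9. The H1-2 element is not contained in the annotated canonical transcript, and the other 4 lie in the 3′ UTR.
H1-2: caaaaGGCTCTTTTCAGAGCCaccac
H2AC11: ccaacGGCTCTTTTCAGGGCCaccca
H2BC12: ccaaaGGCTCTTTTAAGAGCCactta
H3C8: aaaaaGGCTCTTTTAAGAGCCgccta
H4C9: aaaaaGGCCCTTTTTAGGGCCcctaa

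The U7 RNA that LSM10 and LSM11 coat is encoded by RNU7-1 at chr12:6943816-6943878 on the plus strand of GRCh38, and is 63 bases long. The capitals mark its Sm site, positions 21 to 31 from the 5′ end, around which the ring of LSM10, LSM11 and 5 Sm proteins closes.
RNU7-1: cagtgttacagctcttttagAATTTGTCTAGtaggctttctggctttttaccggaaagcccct
U7 RNA has no poly(A) tail and is shorter than the 65-base reads, and RNU7-1 had 0 reads in all 8 libraries. The amount of U7 RNA was therefore not measured here, and the values below are those of the mRNAs that encode its protein partners.

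The libraries held 22037423 to 24444185 counted reads. The NELFE and NELFB levels followed the labels. Values per library are CPM, read counts relative to the TMM-adjusted size of the library. NELFE stood at 50.5, 49.4 and 48.0 in control, 2.41, 2.36 and 2.98 in NELFE KD, and 61.2 and 56.8 in NELFB KD. NELFB stood at 74.3, 72.6 and 79.0 in control, 63.3, 63.85 and 63.97 in NELFE KD, and 3.07 and 2.77 in NELFB KD. ADAM22, the target of the control guide RNA, was at 13.7, 12.9 and 11.2 in control, 40.2, 47.4 and 29.9 in NELFE KD, and 35.5 and 41.0 in NELFB KD. The proliferation genes MKI67, TOP2A and PCNA were abundant, whereas the leukocyte gene PTPRC had at most 2 reads in a library. CD34, a marker of blood progenitors, was at most 0.133 CPM in control and reached 2.78 CPM in NELFB KD replicate 1, and its part in the results was not tested.

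Control replicate 1 and NELFE KD replicate 3 stood apart from the other libraries of their groups. Over 9996 abundant genes, the root mean square log2 difference from control replicate 1 was 0.243 to control replicate 2 and 0.319 to control replicate 3, against 0.155 between the latter 2. NELFE KD replicate 3 differed by 0.278 and 0.284 from the other two, which differed from each other by 0.126. The NELFB KD libraries differed by 0.145. Several of the 10 factors followed these libraries, and results are therefore given with and without them where they matter.

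In control cells the mRNAs of the 10 factors covered a wide range of levels. In TPM, which corrects the counts for exon length and library size, SLBP was the highest at 337 ± 43.0 (SD, n = 3), followed by SRRT at 238 ± 50.3, NCBP2 at 172 ± 6.62 and NCBP1 at 143 ± 14.6. The middle of the order was formed by LSM10 at 67.4 ± 8.48, CASP8AP2 at 51.2 ± 2.45 and NPAT at 32.04 ± 1.298. The lowest were ERI1 at 26.4 ± 3.75, LSM11 at 24.6 ± 1.78 and ZNF473 at 16.7 ± 1.92. ERI1 and LSM11 were the only neighbours in this order whose control libraries overlapped. The SLBP mRNA thus stood far above those of the U7-specific proteins, and LSM10 above its ring partner LSM11. The order was the same in NELFE KD. In NELFB KD, LSM11 at 14.9 ± 1.02 TPM (n = 2) came below ZNF473 at 16.5 ± 0.165.

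**Figure D1:**
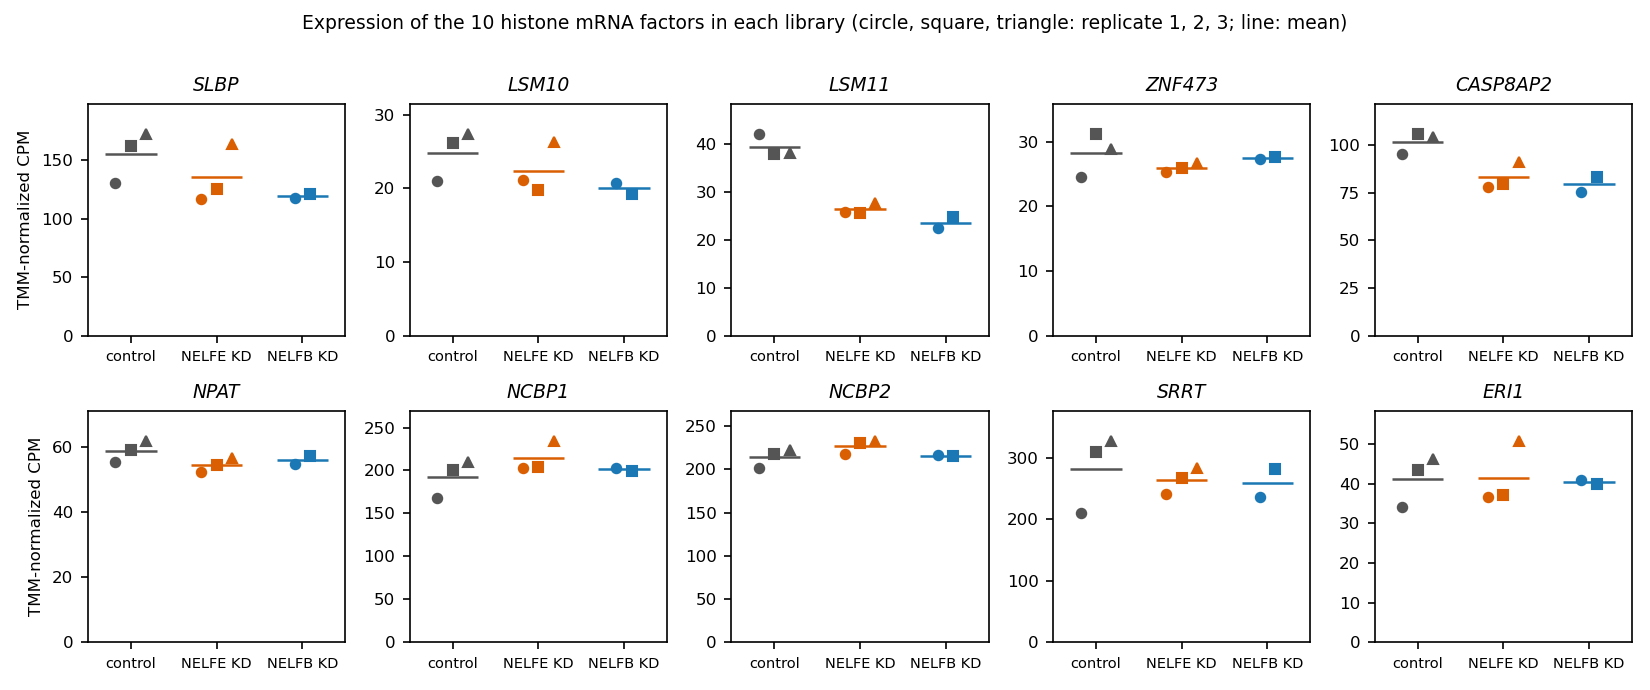
TMM-normalized CPM of each of the 10 factors in each library, 1 panel per gene, each with its own axis from 0. Circles, squares and triangles are replicates 1, 2 and 3 and lines are group means. LSM11 and CASP8AP2 are lower in all 5 knockdown libraries than in all 3 control libraries, and the triangle of NELFE KD (replicate 3) lies near or above the control mean for SLBP, LSM10, NCBP1 and ERI1.

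The first comparison asked how these mRNAs responded to the loss of NELF, with the 5 knockdown libraries set against the 3 control libraries. LSM11, the U7-specific Sm-like protein that docks CASP8AP2, fell the most, and CASP8AP2 (also known as FLASH), which together with LSM11 recruits the cleavage factors, fell to a lesser extent. The other 8 did not pass the test. By edgeR's quasi-likelihood test at a Benjamini-Hochberg adjusted p under 0.05, 2 of the 10 were lower and 0 were higher, beside 26% of all tested genes called in either direction, of which 13.3% of tested genes were higher and 12.7% lower. The share of the factors that was called is thus near the background. Their median log2 fold change was -0.10, beside -0.0021 over all tested genes.

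LSM11 (ENSG00000155858, chr5:157743712-157760709, plus strand) stood at 42.2, 38.0 and 38.1 CPM in control, 25.8, 25.7 and 27.8 in NELFE KD, and 22.5 and 24.8 in NELFB KD. The knockdown and control libraries did not overlap, which also held for 28.7% of tested genes (14.7% with the knockdowns higher and 14% with them lower). Its log2 fold change was -0.64 (SE 0.0823, 95% interval -0.82 to -0.46), or 1.56-fold lower, with an adjusted p of 0.000484 by edgeR with Benjamini-Hochberg adjustment. Of all tested genes, 3.59% had a log2 fold change as low or lower. Its reads were 859 to 1054 per control library and 543 to 621 per knockdown library, and its exons overlap no other annotated gene. The fall was as large without control replicate 1 and NELFE KD replicate 3, at -0.63.

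CASP8AP2 (ENSG00000118412, chr6:89829894-89874436, plus strand) stood at 95.3, 106 and 104 CPM in control, 78.1, 79.9 and 91.4 in NELFE KD, and 75.6 and 83.5 in NELFB KD. These values did not overlap either, although NELFE KD replicate 3 came close to the lowest control library. The log2 fold change was -0.32 (SE 0.0741, 95% interval -0.48 to -0.15), or 1.25-fold lower, with an edgeR adjusted p of 0.00995. A total of 15.6% of tested genes changed as far downward. Without control replicate 2 the adjusted p was 0.0535.

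SLBP (ENSG00000163950, chr4:1692731-1712344, minus strand), the stem-loop binding protein itself, stood at 131, 163 and 172 CPM in control, 117, 125 and 164 in NELFE KD, and 118 and 121 in NELFB KD. The groups overlapped, since control replicate 1 was low and NELFE KD replicate 3 was high. The log2 fold change was -0.27 (95% interval -0.53 to -0.00), with an unadjusted p of 0.0476 and an adjusted p of 0.125 by edgeR with Benjamini-Hochberg adjustment. Without control replicate 1 it was -0.38 (adjusted p 0.0406), and without NELFE KD replicate 3 it was -0.37 (adjusted p 0.00793). The call for SLBP thus changed when either library was left out, and it changed under other alternatives as well. Over 15 alternatives the log2 fold change ranged from -0.478 to -0.185. SLBP was called in 4 of them and not called in 11. The lowest value, which was called, came from leaving out both libraries together, a setting added after the data were seen.

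LSM10 (ENSG00000181817, chr1:36391238-36397908, minus strand), the second U7-specific ring protein, stood at 20.9, 26.1 and 27.4 CPM in control, 21.1, 19.7 and 26.3 in NELFE KD, and 20.8 and 19.3 in NELFB KD. The same 2 libraries were again the low control and the high knockdown library, and the groups overlapped. The log2 fold change was -0.21 (95% interval -0.47 to 0.05, edgeR adjusted p 0.221), and without NELFE KD replicate 3 it was -0.30 (adjusted p 0.0429). Over 15 alternatives it ranged from -0.404 to -0.135, and LSM10 was called in 2 of them. Here too the lowest value, which was called, came from the setting without both libraries. The LSM10 counts were the smallest of the 10, at 451 to 626 reads per library.

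ZNF473 (ENSG00000142528, chr19:50025714-50053414, plus strand), a zinc finger protein of the U7 snRNP also known as ZFP100, ranged from 24.5 to 31.2 CPM in control and from 25.3 to 27.7 in the knockdowns. Every knockdown library lay within the control range. Its log2 fold change was -0.08 (95% interval -0.27 to 0.11, edgeR adjusted p 0.518). Of its exon bases, 6.78% are shared with VRK3 and an antisense RNA, and reads there could not be assigned to 1 gene.

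NPAT (ENSG00000149308, chr11:108157215-108222638, minus strand), the coactivator of histone gene transcription that cyclin E and CDK2 phosphorylate, ranged from 55.6 to 62.0 CPM in control and from 52.6 to 57.3 in the knockdowns. These ranges overlapped in part. The log2 fold change was -0.09 (95% interval -0.23 to 0.05, edgeR adjusted p 0.325), so that a fall of the size seen for LSM11 lies outside the interval.

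Among the cap-binding factors, NCBP1 (ENSG00000136937, chr9:97633668-97673748, plus strand), the large scaffold subunit, ranged from 168 to 210 CPM in control and from 199 to 235 in the knockdowns. Its log2 fold change was 0.12 (95% interval -0.07 to 0.30, edgeR adjusted p 0.328). NCBP2 (ENSG00000114503, chr3:196935402-196942594, minus strand), the subunit that holds the cap, ranged from 202 to 223 CPM in control and from 215 to 233 in the knockdowns, with a log2 fold change of 0.06 (95% interval -0.08 to 0.19, adjusted p 0.527). The intervals of both subunits reach no lower than -0.08. SRRT (ENSG00000087087, chr7:100875103-100888664, plus strand), also known as ARS2, had the widest control range, from 211 in replicate 1 to 328 in replicate 3, which enclosed all knockdown libraries at 237 to 284. Its log2 fold change was -0.11 (95% interval -0.38 to 0.17, edgeR adjusted p 0.561), and without control replicate 1 it was -0.28 (adjusted p 0.0305). NCBP2 shares 2.78% of its exon bases with NCBP2-AS1.

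ERI1 (ENSG00000104626, chr8:9002147-9116746, plus strand), the exonuclease that binds the stem-loop together with SLBP, ranged from 34.1 to 46.2 CPM in control and from 36.5 to 50.8 in the knockdowns. Its log2 fold change was -0.00 (95% interval -0.27 to 0.26, edgeR adjusted p 0.985). The highest value was again that of NELFE KD replicate 3.

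With control replicate 1 and NELFE KD replicate 3 left out together, 6 of the 10 factors were lower. Beside LSM11 and CASP8AP2 these were SLBP at a log2 fold change of -0.48 (edgeR adjusted p 2.51e-05), LSM10 at -0.40 (0.0014), SRRT at -0.31 (0.00316) and ERI1 at -0.22 (0.0305). Under the same setting 3278 genes were higher and 3347 lower among all tested, in place of 2182 and 2073. Removal of the libraries farthest from their groups lowers the spread by construction, and this setting was chosen after the data were seen.

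**Figure D2:**
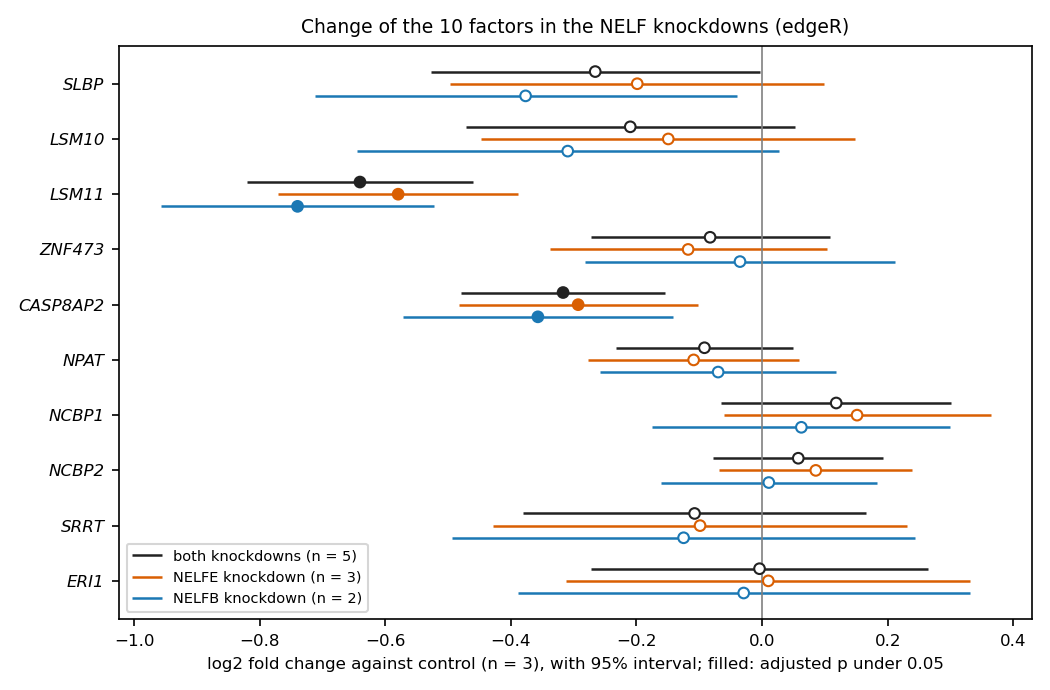
Log2 fold change of each factor against control with its 95% interval (edgeR, x axis), for both knockdowns combined (black), NELFE KD (orange) and NELFB KD (blue). Filled points have an adjusted p under 0.05, which LSM11 and CASP8AP2 have in each of the 3 comparisons, and the intervals of LSM10, ZNF473, NPAT, NCBP1, NCBP2, SRRT and ERI1 include 0 in all 3.

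The second question was whether each knockdown alone gave these changes. In NELFE KD, LSM11 was 1.49-fold lower (log2 fold change -0.58, SE 0.0863, edgeR adjusted p 0.00306) and CASP8AP2 1.23-fold lower (-0.29, SE 0.086, adjusted p 0.0452), and 0 factors were higher, beside 15% of all tested genes called, which were 7.92% higher and 7.04% lower. In NELFB KD, LSM11 was 1.67-fold lower (-0.74, SE 0.0984, edgeR adjusted p 0.00114) and CASP8AP2 1.28-fold lower (-0.36, SE 0.0969, adjusted p 0.0281), beside 19.5% of all tested genes called, which were 10.6% higher and 8.88% lower. Both knockdowns were set against the same 3 control libraries, so these are not independent repeats. The LSM11 result held in every alternative run, whereas CASP8AP2 in NELFE KD was past the threshold in 8 of 15 alternatives and in NELFB KD in 11 of 15.

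The third comparison set the knockdowns against each other. None of the 10 factors differed between them by edgeR with Benjamini-Hochberg adjustment, beside 0.315% of all tested genes called (0.237% higher and 0.0771% lower in NELFE KD). The difference for LSM11, NELFE KD minus NELFB KD, was 0.16 on the log2 scale (95% interval -0.06 to 0.38), for SLBP 0.18 (-0.16 to 0.51) and for CASP8AP2 0.06 (-0.15 to 0.28). With 3 and 2 libraries, these intervals leave room for differences of either sign.

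The partner genes were grouped in 6 lists, with 47 genes in all, each of which was tested. In the combined comparison 2 were higher, 18 were lower and 27 were not called, with a median log2 fold change of -0.22. Of all tested genes 13.3% were higher and 12.7% lower, with a median of -0.0021. These shares of all tested genes are also those to set beside each list below for the combined comparison. In NELFE KD alone 1 partner gene was higher and 8 were lower, beside 7.92% and 7.04% of all tested genes. In NELFB KD alone these counts were 1 and 16, beside 10.6% and 8.88%. LSM11 and LSM10 replace the Sm proteins SmD2 and SmD1 (SNRPD2 and SNRPD1) in the U7 ring and share the other 5 with the spliceosomal snRNPs. Of these 7 Sm genes, 4 were lower and 0 higher (12.7% and 13.3% of all tested genes), with a median of -0.30, and SNRPB at -0.42 (edgeR adjusted p 0.0051), SNRPD2 at -0.30 (0.0126), SNRPD1 at -0.37 (0.0168) and SNRPE at -0.35 (0.0284) passed the test. SNRPB stood at 184, 205 and 224 CPM in control, 157, 153 and 173 in NELFE KD, and 139 and 142 in NELFB KD. It was among 3 of the 7 whose knockdown libraries were all below control, beside 14% of all tested genes. SNRPD1 and SNRPE passed the test although their libraries overlapped between the groups. SNRPD3 at -0.10, SNRPF at -0.22 and SNRPG at -0.19 did not pass. In NELFE KD alone 1 of the 7 was lower and in NELFB KD alone 4 (7.04% and 8.88% of all tested genes).

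Of the 4 genes of the histone cleavage complex, CPSF2 (-0.37, edgeR adjusted p 0.00246) and the scaffold SYMPK (-0.29, 0.00613) were lower, and CPSF3, the endonuclease, at -0.13 and CSTF2 at -0.02 did not pass. CPSF2 stood at 178, 194 and 212 CPM in control, 149, 149 and 157 in NELFE KD, and 148 and 151 in NELFB KD. Its knockdown libraries were all below control, which held for 3 of the 4 genes and for 14% of all tested genes. The 15 genes of histone mRNA translation and decay included 7 that were lower and 0 higher (12.7% and 13.3% of all tested genes), with a median of -0.25. In NELFE KD alone 3 of the 15 were lower and in NELFB KD alone 4 (7.04% and 8.88% of all tested genes). Among the 7 were the decapping enzyme DCP2 (-0.34, edgeR adjusted p 0.00295) and LSM2 (-0.46, 0.00688), LSM7 (-0.40, 0.0071) and LSM4 (-0.29, 0.0153). These LSM proteins are subunits of the ring that binds oligouridylated histone mRNA and is also part of general mRNA decay. LSM6 of the same ring was lower too (-0.25, edgeR adjusted p 0.04). It did not pass in NELFE KD alone (edgeR adjusted p 0.129) or in NELFB KD alone (0.0645). LSM1 at 0.11, LSM3 at -0.28 and LSM5 at -0.11, also of this ring, did not pass.

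Among 7 genes of histone gene transcription, HINFP, the zinc finger activator of H4 genes, was higher at 0.34 (edgeR adjusted p 0.00944) and POU2F1, which acts at H2B promoters, lower at -0.29 (0.0146). HINFP stood at 27.4, 31.5 and 33.5 CPM in control, 38.4, 39.6 and 39.7 in NELFE KD, and 37.4 and 39.2 in NELFB KD. All knockdown libraries were above control, which also held for 14.7% of tested genes. In NELFB KD alone HINFP did not pass (edgeR adjusted p 0.0507), nor did POU2F1 in NELFE KD alone (0.0616). Of 5 partners of the cap-binding complex, the export factor ALYREF was the 1 that was lower (-0.45, edgeR adjusted p 0.0154), and 0 were higher. The ALYREF libraries overlapped between the groups, and in NELFE KD alone it did not pass (edgeR adjusted p 0.0738). The partners of NCBP1 and NCBP2 had a median of -0.03.

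SLBP protein is removed at the end of S phase, and 9 genes of its turnover were examined. CDK1 (-0.52, edgeR adjusted p 0.003) and cyclin A2 (CCNA2, -0.38, 0.0416), which phosphorylate SLBP, and cyclin F (CCNF, -0.42, 0.0019), a ubiquitin ligase receptor for it, were lower, and FEM1A was higher (0.53, 0.016). The CCNA2 libraries overlapped between the groups. CCNA2 did not pass in NELFE KD alone (edgeR adjusted p 0.134) or in NELFB KD alone (0.0909). FEM1A did not pass in NELFE KD alone (0.0653). FEM1A, FEM1B and FEM1C are related substrate receptors that bind SLBP. FEM1C stood at 31.7, 37.1 and 37.3 CPM in control, 29.6, 27.7 and 34.3 in NELFE KD, and 2.40 and 2.60 in NELFB KD. It was greatly reduced in NELFB KD, with a log2 fold change of -3.82 against control (edgeR adjusted p 4.16e-07) and a log2 difference of 3.61 between NELFE KD and NELFB KD (adjusted p 6.25e-07). The SLBP mRNA difference between the knockdowns, given above, did not pass the test, and SLBP protein was not measured.

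The low FEM1C level in 1 knockdown is shown beside the guide RNA sequence. The NELFB guide RNA shares its 11 bases next to the protospacer-adjacent motif with a site at chr5:115544436-115544457 on the minus strand of GRCh38, in an intron of FEM1C and 318 bases from its canonical start. The unbroken run of matching bases next to the motif is in capitals, and the last 3 bases of the genomic site are the motif. Some of the other bases match as well and were not scored.
NELFB guide: gccgagctGGAGGGCGCCG
FEM1C site: ggcgggaaGGAGGGCGCCGggg
A match of 11 or more bases within 500 bases of a start site was found for 0.266% of 16175 tested genes. At the 10 factors the longest match of this kind was 8 bases for the NELFB guide RNA (NCBP2) and 6 for the NELFE guide RNA (SRRT), with 6 and 2 at LSM11 and 3 and 4 at CASP8AP2. The medians over tested genes were 5 for the NELFB guide RNA and 4 for the NELFE guide RNA. A match of 6 or more bases to the NELFB guide RNA was found for 31.1% of tested genes. Whether any such match affects expression was not tested.

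Promoters of 7 of the 10 factors were found in the RefSeq table (GRCh38.p14). The 250 bases before the start of the 2 genes that fell are printed 5′ to 3′ on the strand of the gene, with searched motifs in capitals. These are chr5:157743462-157743711 on the plus strand for LSM11 and chr6:89829630-89829879 on the plus strand for CASP8AP2.
LSM11: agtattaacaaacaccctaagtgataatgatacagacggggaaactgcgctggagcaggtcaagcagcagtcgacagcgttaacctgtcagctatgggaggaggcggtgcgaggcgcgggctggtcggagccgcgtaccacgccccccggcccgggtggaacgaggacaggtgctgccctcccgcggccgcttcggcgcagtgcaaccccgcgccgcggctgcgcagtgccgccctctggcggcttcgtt
CASP8AP2: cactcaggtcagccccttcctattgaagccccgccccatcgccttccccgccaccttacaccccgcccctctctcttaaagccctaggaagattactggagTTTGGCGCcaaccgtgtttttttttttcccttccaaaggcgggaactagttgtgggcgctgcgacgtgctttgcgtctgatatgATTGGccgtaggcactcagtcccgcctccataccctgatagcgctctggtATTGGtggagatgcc
The motifs were the letters TTTNNCGC (E2F), TTTGAA (the cell cycle homology region), CCAAT and, by name, the NRF1 motif, on both strands. CASP8AP2 held 1 TTTNNCGC, a motif in 5.92% of 35116 promoters, and 2 CCAAT, a motif in 32%. LSM11 held none of the 4, nor did SLBP and SRRT. NPAT and NCBP2, which were not called, also held 2 CCAAT each, and LSM10 held 1. The genes that fell therefore had no searched motif in common.

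Genes of the cell cycle were examined beside the factors, since histone mRNA is made in S phase. Of 14 S phase genes 8 were lower and 0 higher in the combined comparison (12.7% and 13.3% of all tested genes), with a median log2 fold change of -0.41, and among them were CDT1 (-0.80, edgeR adjusted p 0.000563), MCM2 (-0.54, 0.00196) and MCM6 (-0.62, 0.00348). All 6 genes of G2 and M phase were lower (12.7% of all tested genes), with a median of -0.36, PLK1, MKI67 and TOP2A among them. In NELFE KD alone, 6 of the 14 S phase genes and 3 of the 6 G2 and M phase genes were lower (7.04% of all tested genes). In NELFB KD alone these counts were 8 and 5 (8.88% of all tested genes). In bulk RNA, fewer cells in S phase and less mRNA per cell cannot be told apart. The summed CPM of the S phase genes was 3769, 4339 and 4904 in control, 3059, 3141 and 4146 in NELFE KD, and 2886 and 3112 in NELFB KD. PCNA, the DNA polymerase clamp and the most abundant of the 14 in control TPM, did not pass the test (-0.28, edgeR adjusted p 0.0994). In the summed S phase CPM, control replicate 1 was the lowest control library and NELFE KD replicate 3 the highest knockdown library. The same held for SLBP, LSM10, CASP8AP2, NCBP1, NCBP2, SRRT and ERI1, and not for LSM11, ZNF473 and NPAT. The part of the S phase genes in the values of the factors was not tested.

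The summed CPM of the 10 factors was 984, 1194 and 1240 in control, 1018, 1069 and 1196 in NELFE KD, and 1016 and 1069 in NELFB KD. These sums overlapped between the groups. Histone mRNAs, on which the factors act, behaved differently, since the 64 replication-dependent histone genes in the table summed to 30.6, 39.9 and 41.1 CPM in control, 216, 171 and 136 in NELFE KD, and 268 and 208 in NELFB KD. Of the 64, 23 passed the filter on low counts. Some of these passed through the knockdown libraries, where they are high, so that a count or median over the 23 is in part set by the filter and is not given. H2BC12 (log2 fold change 2.33), H2AC6 (3.55) and H4C9 (2.16) had 37 or more reads in every control library. The libraries were made from polyadenylated RNA, so a higher value can be more histone mRNA or a larger share of it with a tail, and these cannot be told apart. Reads shared between near-identical histone genes are missing from the counts.

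**Figure D3:**
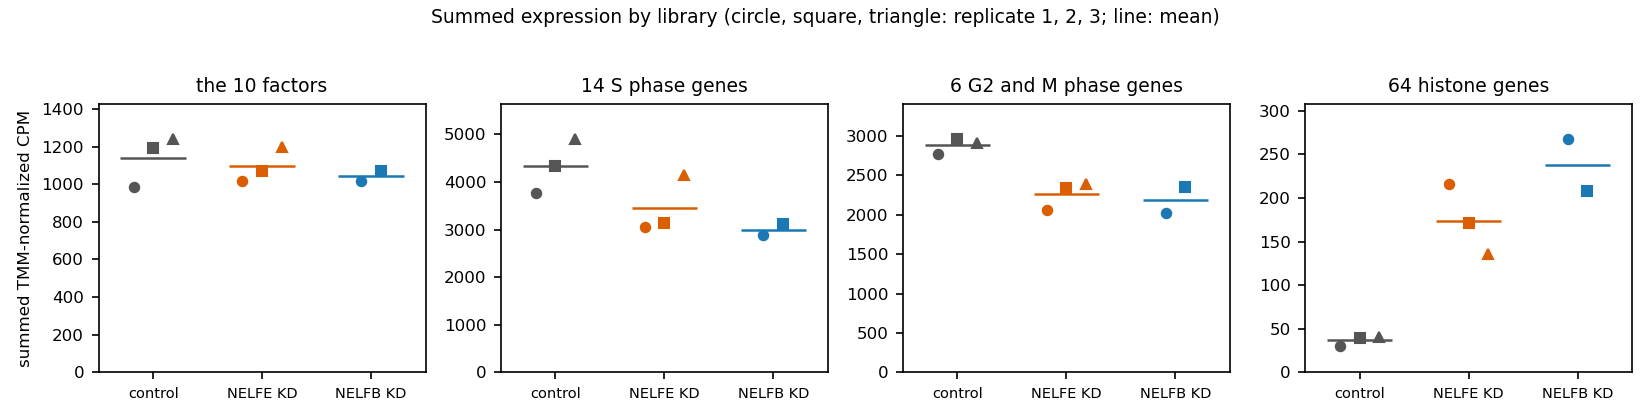
Summed TMM-normalized CPM per library of the 10 factors, 14 S phase genes, 6 G2 and M phase genes and 64 histone genes, each axis from 0. Circles, squares and triangles are replicates 1, 2 and 3 and lines are group means. The sums of the factors overlap between the groups, the S phase triangle of NELFE KD lies within the control range, and all 5 knockdown libraries lie above control for histones.

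NPAT, ZNF473, NCBP1 and NCBP2 start within 1000 bases of a gene on the other strand. NPAT and ATM, the DNA damage kinase, start 429 bases apart. ATM stood at 110, 95.8 and 97.7 CPM in control, 111, 121 and 92.5 in NELFE KD, and 114 and 128 in NELFB KD, and its log2 fold change of 0.17 did not pass the test (edgeR adjusted p 0.23). The other neighbours did not pass it either, with VRK3 beside ZNF473 at 0.19 (edgeR adjusted p 0.081), TSTD2 beside NCBP1 at -0.04 (0.796) and NCBP2AS2 beside NCBP2 at 0.13 (0.32).

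Among the genes whose values across the 8 libraries were most like those of LSM11, the factor with the smallest p, were NEIL3, a DNA glycosylase, and VARS1, the valyl-tRNA synthetase. Their root mean square differences from LSM11, on the mean-centred log2 CPM scale, were 0.0579 and 0.0602, against a median of 0.354 over all tested genes. This is a description over 8 libraries that share their group structure with the comparison above.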

How the data were processed

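RNA-seq measured polyadenylated RNA (TruSeq RNA LT) as single-end 65-base reads. The authors aligned them to GRCh38 with STAR 2.5.4a (FastQC 0.11.6 is also listed in the submitters' processing notes) and deposited raw counts of reads per Gencode gene, without strand and without normalization. STAR counts only reads that map uniquely to 1 gene. The labels number the replicates. The study's methods call the NELFE and NELFB replicates independent, and do not say so for the control libraries. Totals ranged from 22037423 to 24444185 counts per library, and no 2 libraries were copies.

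Tests used edgeR 4.0.16 under R 4.3.3, with filterByExpr, TMM normalization and a robust quasi-likelihood fit. P-values were Benjamini-Hochberg adjusted over all tested genes, and a gene with an adjusted p below 0.05 was called. The combined comparison fitted 5 knockdown against 3 control libraries (16367 genes), and a model of the 3 groups gave the other comparisons (16852 genes). SE is the log2 fold change divided by the root of F, and the 95% intervals are approximate. TPM and positions used GENCODE 44, which matched 99.9% of the counts. The method was tested on simulated data. Alternatives were DESeq2 1.42.0, its size factors in edgeR, 2 filters on low counts, the replicate number as a block, another set or model of libraries and each library left out. The omission of control replicate 1 and NELFE KD replicate 3 together was added after the data were seen. The 10 genes and all lists were chosen with earlier results of these data known. Named besides the 10 genes are the guide targets, up to 4 called genes per partner list and 3 per other list by adjusted p, list genes that differ between the knockdowns, neighbouring genes and the 3 genes most like LSM11. Not every gene that this rule takes is printed, and 1 of those most like LSM11 is not reported here. H1-2, H2AC11 and H3C8 were added for their stem-loops, and PTPRC and CD34 as cell type markers. CPSF3, CSTF2, SNRPD3, SNRPF, SNRPG, LSM1, LSM3, LSM5, FEM1B and PCNA, which were not called, fall outside the rule and were chosen after their values were seen. LSM6, which was called, also falls outside the rule and was chosen after its value was seen.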

Additional observations from a re-analysis of the deposited data

Results flagged for a closer look

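Among the 5 knockdown libraries, NELFE KD replicate 3 was the highest for every factor but ZNF473 and NPAT, and for 3 of the 10 it stood far above the rest. The gap between it and the next library, as a share of the range of the 5, was 0.824 for SLBP, 0.732 for LSM10 and 0.859 for NCBP1, above the 95% critical value of Dixon's test for 5 values (0.71). About 1 in 20 groups would pass this value by chance, and the 3 values come from the same library, which also had the highest S phase sum of the knockdowns. Its part in these values was not tested.

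FEM1C, which encodes a receptor for SLBP degradation, differed between NELFE KD and NELFB KD by 3.606 on the log2 scale in a test of the difference itself (edgeR adjusted p 6.25e-07). The difference of the SLBP mRNA was 0.18 (95% interval -0.16 to 0.51, adjusted p 0.983), and SLBP protein was not measured.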

How the results depend on the processing

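Of 600 repeats for single factors (10 genes, 4 comparisons, 15 alternatives), 532 kept direction and side of the threshold, 22 gained and 12 lost significance, and 34 changed sign. LSM11 kept its call in all 15 alternatives of each comparison with control. Factors called higher numbered 0 throughout.

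Leaving out each library in turn gave 1 to 4 factors lower in the combined comparison, 1 to 3 in NELFE KD and 1 to 4 in NELFB KD, and 11 to 26 partner genes lower (11 without control replicate 3). Genes higher and lower numbered 1360 to 2526 and 1328 to 2599 in the combined comparison (fewest without control replicate 2), 561 to 1620 and 429 to 1503 in NELFE KD (fewest without NELFE KD replicate 1), 380 to 2218 and 223 to 2098 in NELFB KD (fewest without NELFB KD replicate 1), and 24 to 47 and 2 to 34 between the knockdowns.

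Without control replicate 1 and NELFE KD replicate 3 together, an alternative added after the data were seen, 6, 7 and 5 factors were lower in the combined comparison, NELFE KD and NELFB KD, with 32 partner genes lower in the first. Genes higher and lower numbered 3278 and 3347, 2922 and 3058, 3506 and 3382, and 117 and 179 between the knockdowns. Over these omissions, singly or of the 2 together, the log2 fold changes that crossed 0 ranged in the combined comparison from -0.02 to 0.181 for NCBP1, -0.002 to 0.085 for NCBP2, -0.313 to 0.01 for SRRT and -0.215 to 0.084 for ERI1, in NELFE KD from -0.011 to 0.216 for NCBP1, -0.329 to 0.021 for SRRT and -0.282 to 0.1 for ERI1, in NELFB KD from -0.128 to 0.043 for ZNF473, -0.029 to 0.127 for NCBP1, -0.031 to 0.04 for NCBP2 and -0.151 to 0.06 for ERI1, and between the knockdowns from -0.01 to 0.139 for CASP8AP2, -0.078 to 0.155 for SRRT and -0.132 to 0.123 for ERI1.

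The labels do not say what a replicate number stands for, and the numbers were not taken to pair the libraries, since not every same-numbered pair correlated above 0.1. Deviations from the group means correlated at 0.358, 0.0645 and 0.562 for same-numbered control and NELFE KD libraries, -0.0336 and -0.0208 for control and NELFB KD, and 0.125 and 0.261 for NELFE KD and NELFB KD, and NELFE KD replicate 2 correlated better with control replicate 1 (0.296) than with its own number. With the replicate block, genes higher and lower were 2408 and 2355 in NELFE KD, 2312 lower in NELFB KD, and 69 and 126 between the knockdowns. ERI1 then changed sign in the combined comparison (0.041), in NELFB KD (0.102) and between the knockdowns (-0.098), as did SRRT between them (-0.057), and SLBP was called in the combined comparison (-0.223, adjusted p 0.0165) and in NELFB KD (-0.255, 0.0406).

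With only the libraries compared, 1 factor was lower in NELFE KD (CASP8AP2 adjusted p 0.0667). Between the knockdowns the genes lower were 8 under that setting, 8 with at least 10 counts in every library, and 35 by DESeq2, and without a filter 66 were higher and 95 lower. ERI1 was at 0.006 in the combined comparison with at least 10 counts, and NCBP2 at -0.002 in NELFB KD without a filter. The causes of these changes were not tested. With 5 knockdown and 3 control libraries, the intervals of SLBP, LSM10 and SRRT in the combined comparison include a fall as large as that of CASP8AP2.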
